A study of Homo sapiens with 18 samples.

Results

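The APOBEC3 family comprises the 7 human genes APOBEC3A, APOBEC3B, APOBEC3C, APOBEC3D, APOBEC3F, APOBEC3G and APOBEC3H, and all 7 were taken by name from the 56629 gene symbols counted in each table. They were chosen in part because APOBEC3B and APOBEC3A were lower in the 501mel knockout lines, so the values of that comparison are given as a description. RNA was measured in 2 human metastatic melanoma cell lines after CRISPR targeting of ARID2, which encodes a DNA-binding subunit of the PBAF chromatin remodelling complex. SKmel147, labelled NRASQ61R, gave 3 lines with an ARID2 knockout (KO1.4, KO1.5, KO3.20), the transduced control NT and the line Par, which carries no construct. The KO lines and NT all carried Lenti-Cas9 with a PLKO guide vector by stable infection. 501mel, labelled BRAFV600E, gave 2 lines with an ARID2 knockout (KO1.8, KO5.2), the transduced control NTC and a Par line free of any construct, and its KO lines and NTC carried the single vector Lenti-CRISPR V2 with Cas9 and a guide. All lines grew in DMEM with serum. Each of the 9 lines had 2 libraries, called replicates 1 and 2, which gives 18 libraries. The labels do not spell out NT or NTC, do not give the clonality of a line, and do not state that the libraries of a line came from different cultures, so the p-values speak of the spread among libraries, part or all of which may be technical.

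APOBEC3 proteins are zinc-dependent deaminases that turn cytosine into uracil in single-stranded DNA. They restrict retroviruses and retrotransposons, and APOBEC3A and APOBEC3B are also known as sources of the C-to-T and C-to-G mutations in TpC contexts of many tumours. In epithelial and tumour cells, APOBEC3B transcription is known to respond to protein kinase C and NF-kB signalling and to the DREAM and B-Myb complexes, and APOBEC3A and APOBEC3G respond to interferon in several cell types. APOBEC3A, APOBEC3C and APOBEC3H have a single deaminase domain, while APOBEC3B, APOBEC3D, APOBEC3F and APOBEC3G have a tandem pair.

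The genes lie side by side on chromosome 22 and arose by duplication, so reads of one can match another. The start of the stretch in which the coding sequences of APOBEC3A and APOBEC3B align is shown first because many of the differences within it lie there. Capitals mark bases that differ or have no partner. The pair can be told apart elsewhere too, since the alignment starts only at coding position 567 of APOBEC3B.
APOBEC3A: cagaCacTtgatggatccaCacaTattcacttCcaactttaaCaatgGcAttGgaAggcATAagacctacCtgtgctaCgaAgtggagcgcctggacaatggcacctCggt
APOBEC3B: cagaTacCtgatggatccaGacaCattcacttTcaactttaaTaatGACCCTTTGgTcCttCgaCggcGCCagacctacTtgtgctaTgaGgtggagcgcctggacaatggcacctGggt
Over these 120 aligned columns there were 17 mismatched bases and 9 gap positions. Over the whole alignment of 583 columns the pair was 93.1% identical, with 31 mismatched bases. The longest run without any difference was 196 bases, at coding positions 173 to 368 of APOBEC3A and 722 to 917 of APOBEC3B, and a read inside it names neither gene.
APOBEC3A and APOBEC3B, shared run: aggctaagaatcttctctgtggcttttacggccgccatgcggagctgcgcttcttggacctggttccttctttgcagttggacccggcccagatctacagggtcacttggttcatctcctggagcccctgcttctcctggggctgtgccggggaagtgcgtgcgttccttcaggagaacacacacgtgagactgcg
APOBEC3D and APOBEC3F, both double-domain genes that restrict retroviruses, shared the longest run of any pair, 222 bases, within an alignment that was 86.9% identical.
APOBEC3D and APOBEC3F, shared run: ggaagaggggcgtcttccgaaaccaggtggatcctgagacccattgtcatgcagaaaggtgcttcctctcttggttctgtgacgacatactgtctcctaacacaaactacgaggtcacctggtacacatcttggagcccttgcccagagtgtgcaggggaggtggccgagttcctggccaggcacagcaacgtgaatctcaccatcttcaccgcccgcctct
These sequences were read from the GENCODE 29 transcripts, 5′ to 3′ along the coding strand. Of all 50-base windows in a gene's transcripts, 37.8% for APOBEC3B, 24.5% for APOBEC3A, 20.8% for APOBEC3F, 14.8% for APOBEC3D, 7.06% for APOBEC3G and 1.14% for APOBEC3C also occurred in another APOBEC3 gene, and none did for APOBEC3H. With 100-base windows the share was 25.1% for APOBEC3B, 18.4% for APOBEC3A and 0% for APOBEC3C. A transcript model of APOBEC3A also overlaps 348 exon bases of APOBEC3B in that annotation, and a model that overlaps APOBEC3D holds 81.1% of its 50-base windows. Neither read length nor how reads fitting several genes were treated is given in the sources used here, so each member's count may hold reads of another, APOBEC3C and APOBEC3H least.

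Library totals ranged from 21266522 to 35670140 counts in SKmel147 and from 16749707 to 20606855 in 501mel. Levels are given as CPM, counts scaled to library size with TMM factors over all 18 libraries. ARID2 RNA, the check of the labels, was at 40.4 to 58.6 CPM in SKmel147 KO libraries and at 63.5 to 74.3 CPM in SKmel147 control libraries, and at 19.0 to 31.6 CPM in 501mel KO libraries against 39.6 to 42.5 CPM in 501mel controls. ARID2 RNA was therefore lower in every KO library but still present, and whether protein was lost is not shown by these counts. The 8 melanocytic markers summed to 6610 to 9460 CPM in 501mel KO and 8940 to 9480 CPM in 501mel control libraries, each of the 8 above 1 CPM. In SKmel147 they summed to 175 to 240 CPM in KO and 169 to 268 CPM in control libraries, where SOX10 and MITF exceeded 1 CPM in every library. In that cell line TYR, DCT and S100B reached at most 0.601 CPM, PMEL and MLANA at most 1.5 CPM and TYRP1 at most 6.5 CPM. The 14 leukocyte markers summed to at most 1.74 CPM in any library, and PTPRC, the pan-leukocyte marker, was at 0 in 501mel. The 4 keratinocyte markers summed to at most 2.6 CPM and the 4 fibroblast markers to at most 12.5 CPM, both in SKmel147 KO libraries. There KRT14 was at 1.61 to 2.6 CPM and LUM at 5.3 to 12.2 CPM. In bulk RNA, fewer cells expressing a gene and less RNA per cell cannot be told apart.

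In 501mel, 4 members were expressed above the low-count filter, and all 4 were lower in the ARID2 KO lines. APOBEC3B, the nuclear member of the family, had 9.24 and 9.31 CPM in KO1.8 and 3.24 and 3.17 CPM in KO5.2, against 55.5 and 55.1 CPM in NTC and 28.5 and 31.1 CPM in Par. These levels rest on 183 and 195 counts in KO1.8, 64 and 65 in KO5.2, 965 and 1144 in NTC and 501 and 541 in Par. APOBEC3A, the most active deaminase of the family in vitro, had 4.04 and 4.06 CPM in KO1.8 and 1.16 and 1.27 CPM in KO5.2, against 21.8 and 24.6 CPM in NTC and 13.0 and 12.1 CPM in Par. The KO and control libraries did not overlap for either gene, and the 4 lines fell in the order NTC, Par, KO1.8 and KO5.2 for both.

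APOBEC3D had 0.808 and 1.05 CPM in KO1.8 and 0.253 and 0.195 CPM in KO5.2, against 4.26 and 3.66 CPM in NTC and 2.62 and 2.64 CPM in Par. APOBEC3F had 0.404 and 0.382 CPM in KO1.8 and 0.152 and 0.195 CPM in KO5.2, against 2.07 and 1.93 CPM in NTC and 0.911 and 1.32 CPM in Par. Both lesser members kept the same order of lines. KO5.2 held only 5 and 4 counts of APOBEC3D and 3 and 4 counts of APOBEC3F.

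**Figure D1:**
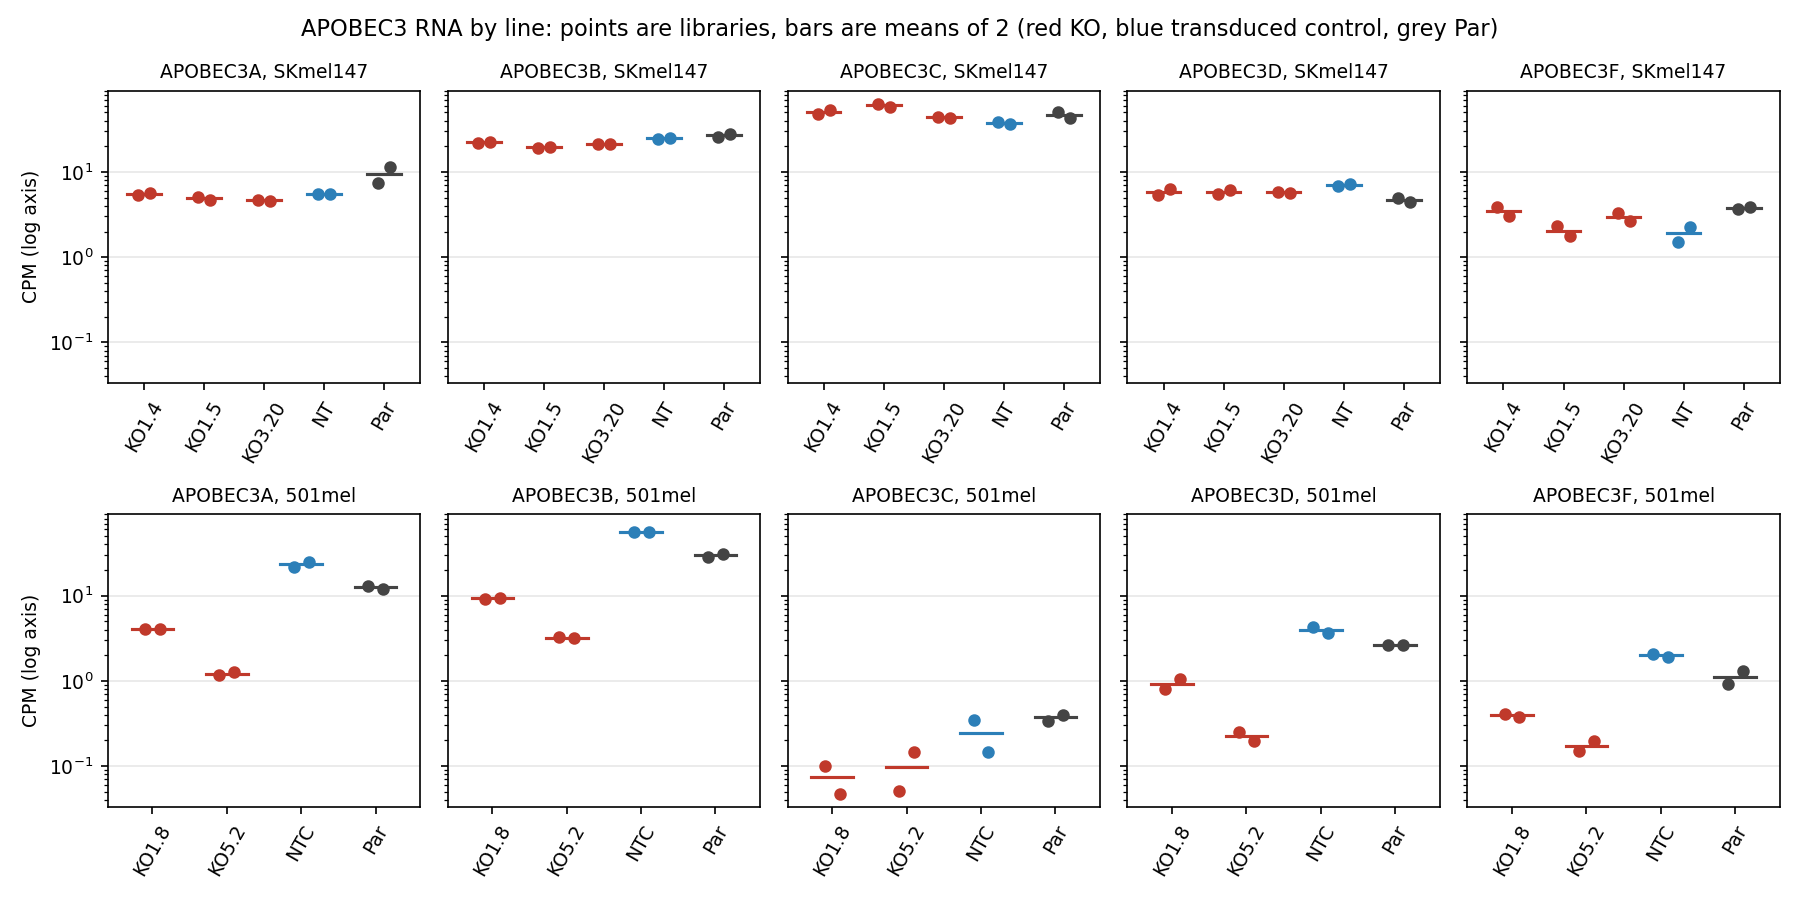
CPM on a log axis for 5 members in each line, with SKmel147 in the upper row and 501mel in the lower row; points are libraries and short bars the mean of the 2 libraries of a line, in red for KO lines, blue for NT or NTC and grey for Par. In 501mel the KO lines lie below both controls for APOBEC3A, APOBEC3B, APOBEC3D and APOBEC3F. In SKmel147 the lines lie closer together for the same genes. The widest of these spans there are 1.52 to 3.91 CPM for APOBEC3F and 4.61 to 11.5 CPM for APOBEC3A.

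The fold change of the 501mel KO lines from the mean of the 2 control lines was similar for the 4 genes. On the log2 scale, with its standard error (SE), it was -2.89 ± 0.07 for APOBEC3B, a 7.43-fold lower level, and -2.94 ± 0.10 for APOBEC3A, a 7.67-fold lower level. It was -2.80 ± 0.21 for APOBEC3D and -2.48 ± 0.29 for APOBEC3F. Against Par alone the log2 values were -2.45 for APOBEC3B and -2.50 for APOBEC3A, and against NTC alone they were -3.34 and -3.38 in that order of genes. KO1.8 alone was lower than the controls by a log2 value of -2.14 ± 0.08 for APOBEC3B and -2.08 ± 0.11 for APOBEC3A, and KO5.2 by -3.65 ± 0.09 and -3.79 ± 0.14. All 4 tested members passed an adjusted p of 0.05 and all 4 had KO libraries below every control library, but 51.3% of all 16230 genes tested passed (26.5% lower) and 13.7% had every KO library below every control library, and since the members were chosen on this comparison nothing is read from these counts. With counts summed per line, which leaves 2 lines against 2 in edgeR, no member and no other gene was called. All 4 members had an unadjusted p under 0.05 there, where the share of all genes was not counted. With a block per line, limma's voom called all 4 members, beside 942 of all genes. Because of the choice of members, nothing is read from these results either.

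The 501mel KO lines also differed from each other. This comparison uses no control library, but its KO libraries enter the comparison on which the members were chosen. The log2 change of KO5.2 relative to KO1.8 was -1.51 ± 0.12 for APOBEC3B (edgeR quasi-likelihood test with Benjamini-Hochberg (BH) adjustment, adjusted p = 4.22e-07), which is a 2.85-fold lower level in KO5.2. The change was -1.71 ± 0.20 for APOBEC3A (edgeR, BH-adjusted p = 8.84e-06) and -2.01 ± 0.43 for APOBEC3D (edgeR, BH-adjusted p = 0.00172). It was -1.13 ± 0.56 for APOBEC3F, which was not called (edgeR, BH-adjusted p = 0.127). APOBEC3D had 4 to 22 counts in the KO libraries. APOBEC3F had 3 to 8 there and passed the filter through the control lines. Of all genes tested, 41.3% differed between these lines and 20.7% were lower in KO5.2, beside 3 of the 4 members. ARID2 RNA differed in the same direction, by a log2 value of -0.62 ± 0.08. Each KO line is a single line, so its ARID2 level and anything else that sets the line apart cannot be told apart. The 3 calls held in each of the 8 fits that left out 1 library.

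The 2 control lines of 501mel differed as well, and their libraries also enter the comparison on which the members were chosen. NTC was higher than Par by 0.89 ± 0.07 on the log2 scale for APOBEC3B (edgeR, BH-adjusted p = 1.59e-06), a 1.85-fold level, and by 0.88 ± 0.10 for APOBEC3A (edgeR, BH-adjusted p = 3.94e-05). These 2 of the 4 members stand beside 15.7% of all genes called and 6.77% called higher in NTC. APOBEC3D and APOBEC3F had log2 values of 0.58 ± 0.21 and 0.83 ± 0.29 and did not pass (edgeR, BH-adjusted p = 0.0785 and 0.0686).

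**Figure D2:**
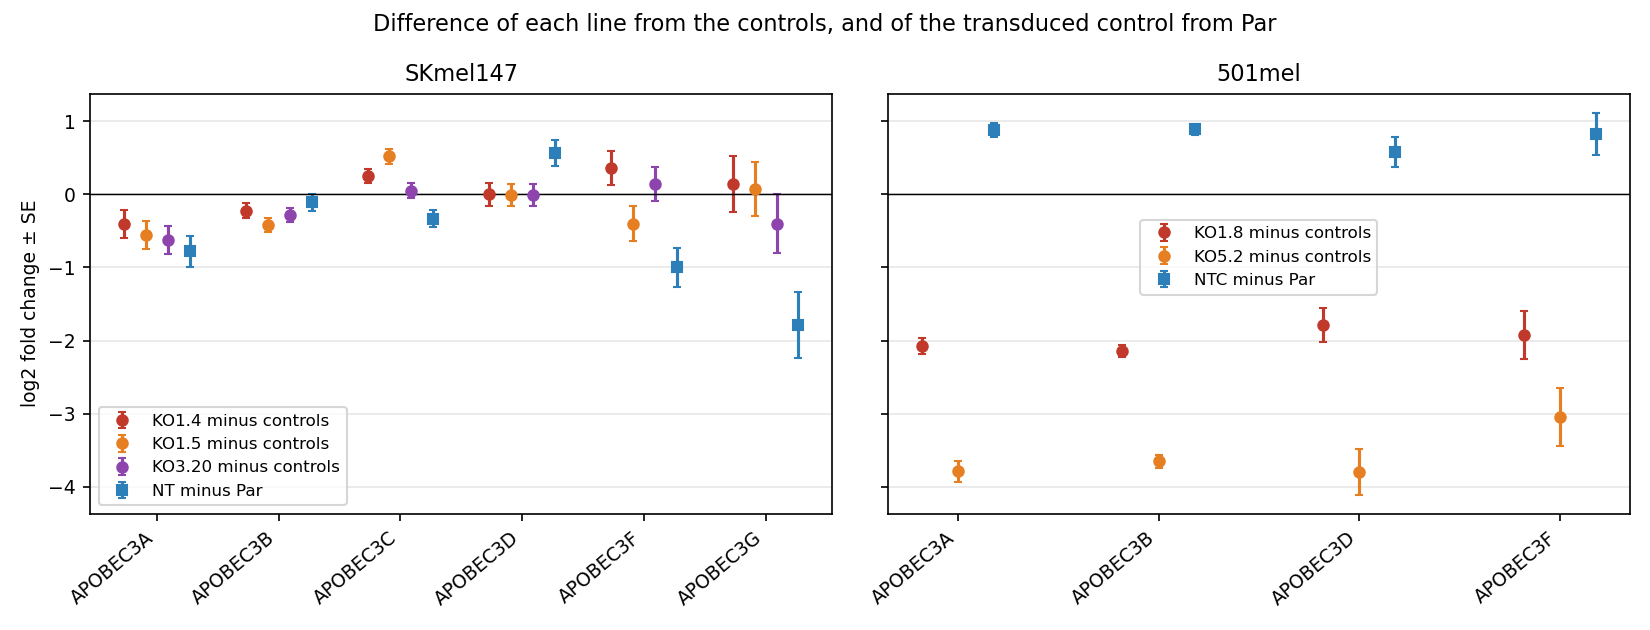
Log2 fold changes (vertical axis, with bars of 1 SE) of each member that was tested, for each KO line minus the mean of the 2 control lines (circles) and for the transduced control minus Par (blue squares), in SKmel147 at the left and 501mel at the right. The 501mel KO lines lie between -1.79 and -3.80, with KO5.2 below KO1.8 for each gene, while SKmel147 values of KO lines lie between -0.62 and 0.52.

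APOBEC3C, APOBEC3G and APOBEC3H were not tested in 501mel. APOBEC3C, a single-domain restriction factor, had 2 and 1 counts in KO1.8 and 1 and 3 in KO5.2, against 6 and 3 in NTC and 6 and 7 in Par. APOBEC3G, the classical factor against HIV that lacks Vif, had 0 or 1 count in each 501mel library. APOBEC3H had 0 to 4 counts in 501mel KO libraries and 1 to 3 in 501mel controls, and 0 or 1 count in every SKmel147 library. A count of 0 allows up to 3 counts, which is 0.143 to 0.173 CPM in a 501mel library and 0.0859 to 0.145 CPM in an SKmel147 library, for counting error only. Without the low-count filter 5 of the 7 members were called in 501mel KO lines, all lower, beside 8496 of all genes called. Thus 1 of these 3 genes joined the 4 above, at counts that are too low to give a size.

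In SKmel147 the summed level of the family overlapped between the groups, at 77.9 to 95.5 CPM in KO libraries and 76.7 to 93.7 CPM in control libraries. APOBEC3C was the most abundant member. It was at 47.5 and 52.6 CPM in KO1.4, 62.9 and 57.8 CPM in KO1.5 and 43.7 and 43.3 CPM in KO3.20, against 38.0 and 36.4 CPM in NT and 50.4 and 43.4 CPM in Par. KO1.5 stood highest, and the other KO lines overlapped Par. APOBEC3B was at 21.8 and 22.7 CPM in KO1.4, 19.3 and 19.7 CPM in KO1.5 and 21.3 and 21.3 CPM in KO3.20, against 24.5 and 25.2 CPM in NT and 26.0 and 27.9 CPM in Par. Its KO libraries all lay below its control libraries, the sole member of the 6 tested for which this held, where 4.35% of all genes had KO libraries below every control. APOBEC3A was at 5.30 and 5.63 CPM in KO1.4, 5.10 and 4.70 CPM in KO1.5 and 4.72 and 4.61 CPM in KO3.20, against 5.46 and 5.50 CPM in NT and 7.41 and 11.5 CPM in Par. The KO libraries of APOBEC3A overlapped NT and lay below Par, whose 2 libraries differed most from each other.

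The mean of the 3 SKmel147 KO lines was lower than that of the controls by a log2 value of -0.31 ± 0.07 for APOBEC3B, 1.24-fold (edgeR, BH-adjusted p = 0.0144), and by -0.53 ± 0.14 for APOBEC3A, 1.44-fold (edgeR, BH-adjusted p = 0.0203). It was higher by 0.28 ± 0.08 for APOBEC3C, 1.21-fold (edgeR, BH-adjusted p = 0.0282). These 3 calls among 6 tested members stand beside 17.7% of all 18361 genes tested, 9.6% lower and 8.07% higher. Genes of chromosome 22 other than the members had a median log2 value of -0.16 in this comparison, the lowest of all chromosomes. The part of this shift in the members' values was not tested. The values for APOBEC3D, APOBEC3F and APOBEC3G were -0.01 ± 0.11, 0.03 ± 0.17 and -0.07 ± 0.30, none of them called. Each of the 3 calls depended on the control line and on single libraries. For APOBEC3A the log2 value was -0.92 against Par alone and -0.14 against NT alone (edgeR, BH-adjusted p = 0.00277 and 0.682), and without Par replicate 2 it was -0.35 (edgeR, BH-adjusted p = 0.0662). For APOBEC3B it was -0.36 against Par alone and -0.25 against NT alone (edgeR, BH-adjusted p = 0.0176 and 0.115). For APOBEC3C it was 0.11 against Par alone and 0.44 against NT alone (edgeR, BH-adjusted p = 0.472 and 0.0133), and 0.16 without the line KO1.5 (edgeR, BH-adjusted p = 0.265). Of the 10 fits without 1 library, 4 ended the call of APOBEC3A (Par replicate 2, both KO1.4 libraries and KO3.20 replicate 2), 3 that of APOBEC3B (KO1.4 replicate 1 and both KO3.20 libraries) and 8 that of APOBEC3C (all but Par replicate 1 and KO1.5 replicate 2). With counts summed per line in edgeR, none of the 6 tested members was called, beside 13 of all genes. Of the 6, 1 (APOBEC3B) had an unadjusted p under 0.05 in that fit. With a block per line, limma's voom also called 0 members, beside 597 of all genes.

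By line, KO1.5 alone had called members, APOBEC3B at a log2 value of -0.42 ± 0.10 (edgeR, BH-adjusted p = 0.0226) and APOBEC3C at 0.52 ± 0.10 (edgeR, BH-adjusted p = 0.00644), 2 of 6 beside 11.2% of all genes. Against Par alone KO1.5 had 3 called members, all lower, so that the higher call of APOBEC3C ended. In KO1.4 none of the 6 passed in edgeR, beside 8.77% of all genes. There 2 (APOBEC3B and APOBEC3C) had an unadjusted p under 0.05, and the DESeq2 Wald test called 0, beside 1721 of all genes. In KO3.20 none passed in edgeR either, beside 12.6% of all genes. Here 2 (APOBEC3A and APOBEC3B) had an unadjusted p under 0.05, and the DESeq2 Wald test called 1, beside 2391 of all genes. APOBEC3A was at -0.62 ± 0.19 in KO3.20 (edgeR, BH-adjusted p = 0.0515) and -0.40 ± 0.19 in KO1.4 (edgeR, BH-adjusted p = 0.244). A test of any difference among the 3 KO lines called none of the 6 members and 5.46% of all genes; by unadjusted p, APOBEC3C at 0.00659 and APOBEC3F at 0.0447 were under 0.05 in that edgeR test.

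The SKmel147 control lines also differed from each other for some members. NT was lower than Par by a log2 value of -1.79 ± 0.45 for APOBEC3G (edgeR, BH-adjusted p = 0.0300), -1.0 ± 0.27 for APOBEC3F (edgeR, BH-adjusted p = 0.0397) and -0.78 ± 0.21 for APOBEC3A (edgeR, BH-adjusted p = 0.0418), 3 of 6 members where 5.45% of all genes were lower and 9.27% differed. APOBEC3G had 12 and 21 counts in KO1.4, 15 and 22 in KO1.5 and 17 and 11 in KO3.20, against 9 and 9 in NT and 44 and 22 in Par, and it was highest in Par. APOBEC3F was at 3.91 and 3.08 CPM in KO1.4, 2.31 and 1.77 CPM in KO1.5 and 3.29 and 2.63 CPM in KO3.20, against 1.52 and 2.28 CPM in NT and 3.72 and 3.90 CPM in Par. APOBEC3D was at 5.30 to 6.30 CPM in the KO libraries, against 6.91 and 7.23 CPM in NT and 5.01 and 4.47 CPM in Par, and NT and Par differed by 0.57 ± 0.18, which did not pass (edgeR, BH-adjusted p = 0.0643). For these 3 members the KO libraries lay between the NT and Par libraries or overlapped them. The calls between NT and Par ended in 9 of the 10 fits without 1 library for APOBEC3A, in 7 for APOBEC3F and in 6 for APOBEC3G. Without Par replicate 2, the value for APOBEC3A was -0.45 (edgeR, BH-adjusted p = 0.228). Genes of chromosome 22 other than the members had a median log2 value of -0.53 in this comparison, the lowest of all chromosomes, against 0.00 over all genes, and the part of this shift in the members' values was not tested.

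The difference between the transduced control and Par itself differed between the cell lines for 3 of 6 members (SKmel147 minus 501mel, log2), APOBEC3A at -1.65 ± 0.24, APOBEC3B at -1.01 ± 0.13 and APOBEC3F at -1.84 ± 0.39, among 10.1% of all genes called and 5.21% called lower in the joint edgeR fit. The 501mel side of it uses control libraries that enter the comparison on which the members were chosen.

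Between cell lines, the control lines held different members. SKmel147 controls exceeded 501mel controls by 7.11 ± 0.15 on the log2 scale for APOBEC3C, 138-fold, where the 501mel side rests on at most 7 counts per library. For APOBEC3G, at 9 to 44 counts in SKmel147 control libraries and 0 or 1 count in 501mel control libraries, the log2 value was 4.22 ± 0.64, but it was 5.59 without 501mel Par replicate 2 and 5.53 without NTC replicate 2, so its size is not fixed by these data. APOBEC3D and APOBEC3F were also higher in SKmel147 controls, by 0.85 ± 0.13 and 0.84 ± 0.20. APOBEC3A and APOBEC3B were lower in SKmel147 controls, at -1.25 ± 0.12 and -0.65 ± 0.07. These 4 members, which passed the filter in both cell lines, were called in the joint edgeR fit (BH-adjusted p of 3.76e-08 to 0.000776), as were 80.7% of all genes, 43.1% higher and 37.6% lower in SKmel147. APOBEC3C and APOBEC3G entered that fit through SKmel147, where they are high, so their calls are not counted here. With the Par lines alone the value was -0.43 for APOBEC3A and -0.15 for APOBEC3B, and APOBEC3B was no longer called (edgeR, BH-adjusted p = 0.161). Genes of chromosome 22 other than the members had a median log2 value of -0.63 here, the lowest of all chromosomes, against 0.10 over all genes. The part of this shift in the members' values, such as -0.65 for APOBEC3B, was not tested. The 501mel control libraries also enter the comparison on which the members were chosen, and cell line cannot be told apart from the table each was counted in.

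Per kilobase of exon, so that genes can be set side by side, the order of levels also differed. In SKmel147 KO lines APOBEC3C averaged 18.2 and APOBEC3B 11.1 CPM per kilobase, followed by APOBEC3D at 2.29, APOBEC3A at 2.12, APOBEC3F at 0.873 and APOBEC3G at 0.107. In SKmel147 controls APOBEC3C averaged 14.9 and APOBEC3B 13.7 CPM per kilobase, and their libraries overlapped at 12.9 to 17.9 and 12.9 to 14.7. APOBEC3A and APOBEC3D overlapped in both groups of SKmel147. In 501mel KO lines APOBEC3B averaged 3.29 and APOBEC3A 1.12 CPM per kilobase, with APOBEC3D at 0.228 and APOBEC3F at 0.0873, and in 501mel controls the same order held at 22.4, 7.58, 1.30 and 0.481. No libraries of these 4 genes overlapped in the 501mel controls, whereas in the KO lines those of APOBEC3B overlapped APOBEC3A and those of APOBEC3D overlapped APOBEC3F. That overlap was between KO5.2 and KO1.8. Within each single KO library of 501mel, APOBEC3B exceeded APOBEC3A and APOBEC3D exceeded APOBEC3F per kilobase. In KO5.2 the latter order rests on 5 and 4 counts of APOBEC3D and 3 and 4 of APOBEC3F, too few to rank the 2 genes.

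The proportions among the expressed members changed little in 501mel while their sum fell. The 7 members summed to 4.90 to 15.0 CPM in 501mel KO libraries, against 45.6 to 85.6 CPM in 501mel controls. APOBEC3B made up 62.8% of the sum in KO and 64.7% in control libraries. APOBEC3A made up 29.7% of the pooled APOBEC3A and APOBEC3B counts in KO libraries and 29.7% in control libraries, and by library it was 26.4% to 30.4% in KO and 28.1% to 31.4% in controls. At the low end, KO5.2 replicate 1 had 23 of 87 such counts, 26.4% with an exact 95% binomial interval of 17.6% to 37.0%, which covers counting error only. The intervals of all 8 libraries of 501mel overlapped. In SKmel147 the share was 17.8% to 20.9% in KO libraries and 17.9% to 29.2% in controls, where Par replicate 2 at 29.2% (26.2% to 32.3%) and Par replicate 1 at 22.2% (19.9% to 24.7%) did not overlap each other. Whether reads of 1 of the 2 genes were split between both rows was not tested. APOBEC3D was 5.80% to 10.1% of its sum with APOBEC3B in 501mel KO libraries and 6.23% to 8.41% in controls.

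**Figure D3:**
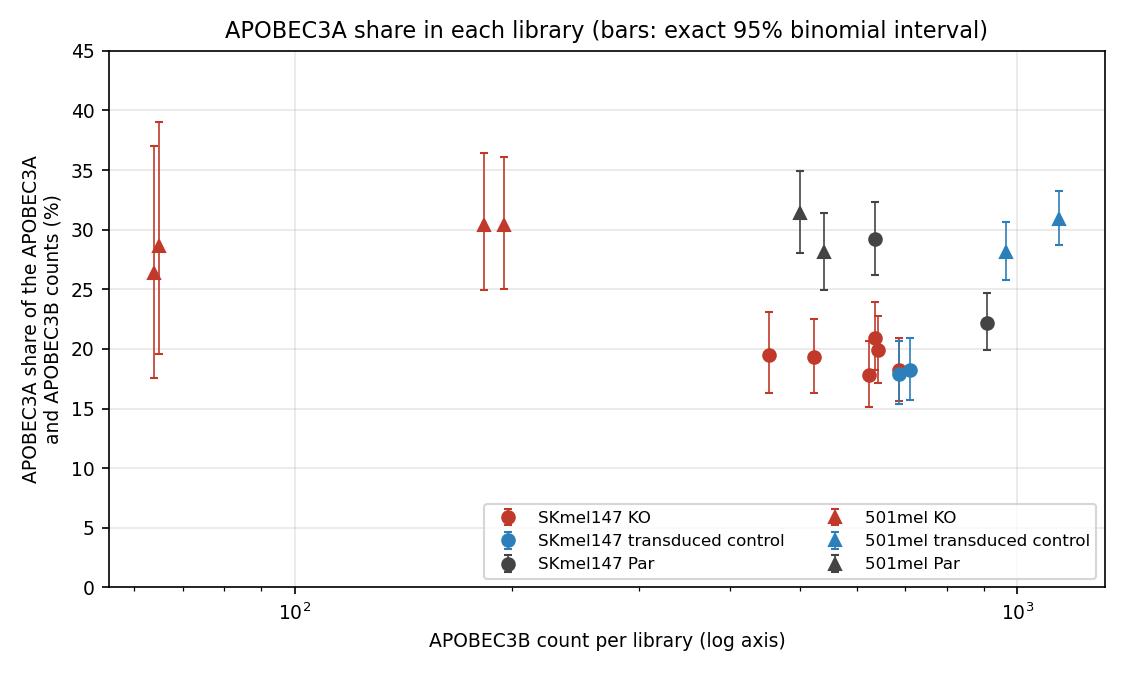
Share of APOBEC3A in the summed counts of APOBEC3A and APOBEC3B (vertical axis, %) against the APOBEC3B count (horizontal log axis) in each library, with exact 95% binomial intervals; circles are SKmel147 and triangles 501mel, in red for KO, blue for the transduced control and grey for Par. The 501mel libraries lie between 26.4% and 31.4% over counts of 64 to 1144, and the SKmel147 libraries lie between 17.8% and 22.2% except for Par replicate 2 at 29.2%.

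Genes on either side of the cluster were counted in KO lines minus controls. Of the 16 nearest protein-coding genes that were tested, 8 on each side, 5 were higher and 3 lower in 501mel KO lines. Their median log2 value was 0.05, with a range of -0.56 to 3.10. Over all genes tested in 501mel, 51.3% were called and 26.5% were lower, so nothing is read from the number of neighbours called. The immediate neighbours were CBX6, a Polycomb chromobox gene next to APOBEC3A, at -0.56, and CBX7, another chromobox gene next to APOBEC3H, at 0.41. NPTXR, which encodes a neuronal pentraxin receptor and lies beyond CBX6, was at 3.10, and it was the neighbour with the largest change. Genes of chromosome 22 other than the members had a median of 0.03 in 501mel KO lines, against -0.01 for all genes. In SKmel147 KO lines 2 neighbours were higher and 6 lower, with a median of -0.20, beside 8.07% of all genes higher and 9.6% lower. Chromosome 22 had a median of -0.16, the lowest of all chromosomes, against -0.01 for all genes. In the comparison of NTC with Par, 2 neighbours were called higher, CBX6 at 0.50 and MIEF1 at 0.21, and 1 lower, ATF4 at -0.26. The neighbours had a median of 0.06 there, beside 15.7% of all genes called and 6.77% called higher. APOBEC3A and APOBEC3B were also called higher in that comparison. The gene annotated opposite to APOBEC3B, APOBEC3B-AS1, had 0 to 2 counts in every library.

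**Figure D4:**
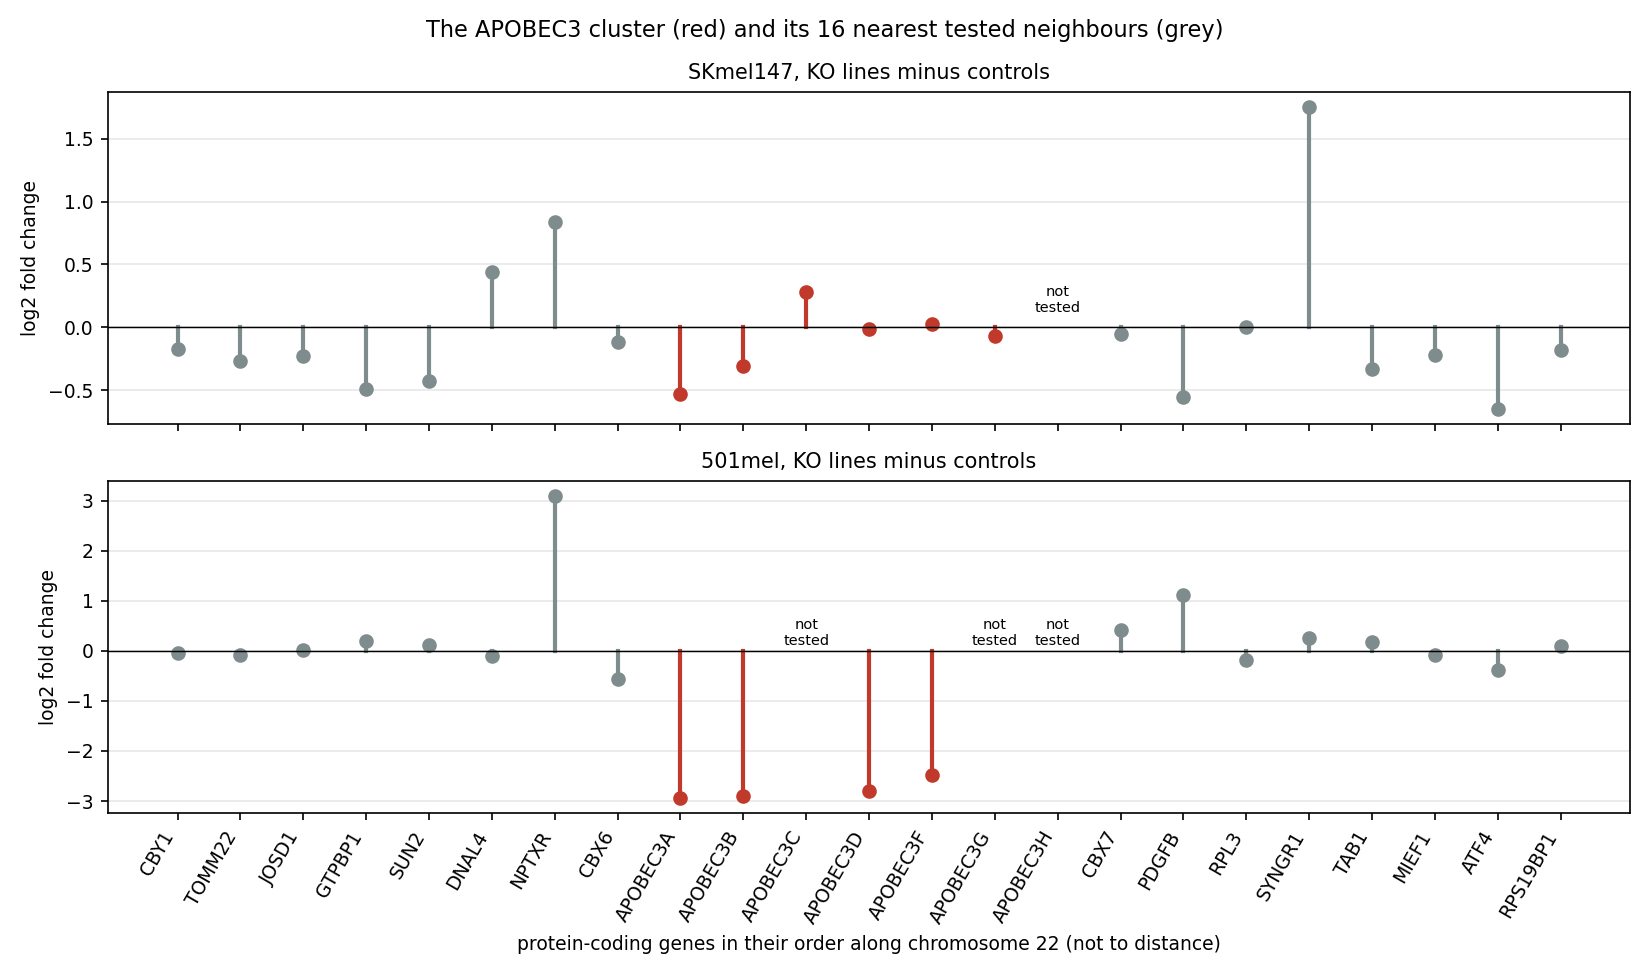
Log2 fold change of KO lines minus controls (vertical axes, which differ in scale) for the members in red and their 16 nearest tested protein-coding neighbours in grey, in gene order along chromosome 22, with SKmel147 above and 501mel below. In 501mel the 4 tested members lie at -2.94 to -2.48 between CBX6 at -0.56 and CBX7 at 0.41.

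Genes known to act on APOBEC3 transcription were counted in the same comparisons, KO lines minus controls. Over all genes tested, 51.3% were called in 501mel (26.5% lower) and 17.7% in SKmel147 (9.6% lower, 8.07% higher). No test of a list was run, and counts near these shares are not read as results about a list. Over all the gene lists that follow, 24 genes were called in SKmel147, of which 10 lost the call against NT alone and 5 against Par alone. Of the 7 protein kinase C genes tested in 501mel, 3 rose and 2 fell, with a median log2 value of 0.15 (median of all genes -0.01), and in SKmel147 1 rose and 1 fell of 6, with a median of 0.03. PRKCB, which encodes the classical isoform beta, had 71.9 and 75.7 CPM in KO1.8 and 0.758 and 1.27 CPM in KO5.2, against 64.3 and 58.2 CPM in NTC and 75.8 and 73.3 CPM in Par. PRKCB thus fell by 2.96 ± 0.08 over both 501mel KO lines, with a log2 value of -6.03 ± 0.13 in KO5.2 alone and of 0.12 ± 0.06, which did not pass, in KO1.8 alone. PRKCA, the classical isoform alpha, had 13.8 and 13.8 CPM in KO1.8 and 11 and 10.7 CPM in KO5.2, against 33.7 and 28.3 CPM in NTC and 32.2 and 30.6 CPM in Par, a log2 change of -1.34 ± 0.07. PRKCH rose in both cell lines, by 0.57 ± 0.05 in 501mel and 0.54 ± 0.13 in SKmel147.

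The counts of the next lists stand beside 51.3% of all genes called in 501mel and 17.7% in SKmel147. Of 18 NF-kB pathway genes tested in 501mel, 5 rose and 5 fell, with a median of -0.05. Among them were TNFAIP3, a feedback inhibitor of the pathway, at 0.93 ± 0.05, TRAF3, a brake on the non-canonical arm, at -0.50 ± 0.06, and the kinase gene IKBKB at 0.41 ± 0.06. In SKmel147 1 of 19 passed, BIRC3, at -0.42 ± 0.12, and the median was -0.02. That call depended on the control line, since BIRC3 was at -0.76 against Par alone and -0.08 against NT alone (edgeR, BH-adjusted p = 0.00365 and 0.788). Of 20 DREAM, B-Myb and E2F regulators, 7 rose and 4 fell in 501mel (median 0.08), including RB1 at 0.52 ± 0.05, E2F1 at 0.52 ± 0.06 and TFDP2 at -0.51 ± 0.05. MYBL2, which encodes B-Myb, did not pass in 501mel at 0.07 ± 0.04. In SKmel147 1 rose and 2 fell (median 0.02), namely RBBP4 at 0.27 ± 0.07, LIN9 at -0.46 ± 0.10 and MYBL2 at -0.35 ± 0.09. Of the TEAD and p53 regulators, 1 rose and 5 fell of 7 in 501mel (median -0.40), among them MDM2 at -0.62 ± 0.05, TEAD1 at -0.54 ± 0.04 and WWTR1 at -0.40 ± 0.04, and 3 rose and none fell of 9 in SKmel147 (median 0.17), with WWTR1 at 0.59 ± 0.08, CDKN1A at 0.55 ± 0.08 and MDM2 at 0.45 ± 0.12.

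Interferon genes were counted beside the same shares of all genes called, 51.3% in 501mel and 17.7% in SKmel147. Of 25 tested in 501mel, 7 rose and 7 fell (median -0.05), including MX1 at -0.72 ± 0.11 and STAT2 at -0.51 ± 0.05, and IFI44 had 0 counts in all 4 KO libraries, against 17 and 16 counts in NTC and 5 and 4 in Par. In SKmel147 4 rose and 2 fell of 29 (median 0.09), with IFIT2 at 0.84 ± 0.15, the RNA sensor gene IFIH1 at 0.80 ± 0.10 and IFIT1 at 0.69 ± 0.17. NT against Par had 1 higher and 8 lower of 29, with a median of -0.45, beside 9.27% of all genes called and 5.45% lower. Of the other antiviral restriction factors, 3 rose and 5 fell of 11 in 501mel (median -0.22), with IFITM3 at -1.45 ± 0.12 and SAMHD1, a dNTP hydrolase, at 0.48 ± 0.06. In SKmel147 3 rose and 3 fell of 13 (median 0.16), with TRIM22 at -1.82 ± 0.12, IFITM3 at 0.64 ± 0.08 and SLFN11 at -0.49 ± 0.08. Downstream of the deaminases, the 16 genes of uracil repair and abasic-site bypass tested in 501mel had 6 higher and 5 lower (median 0.04), with the translesion polymerase gene REV1 at -0.82 ± 0.06, XRCC1 at 0.43 ± 0.05 and APEX1 at -0.30 ± 0.04. In SKmel147 2 rose and 1 fell of 17 (median -0.05), with POLH at 0.56 ± 0.09, REV3L at 0.30 ± 0.09 and UNG, the uracil glycosylase gene, at -0.27 ± 0.08. The deaminase genes APOBEC1, APOBEC2 and APOBEC4 did not pass the filter in either cell line.

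Across the 9 lines, after each cell line was centred on its mean, the log2 CPM of APOBEC3A and APOBEC3B had a Pearson r of 0.987, and 501mel alone gave 0.999 against 0.827 in SKmel147. APOBEC3D and APOBEC3B had r = 0.975 over all lines, but -0.213 within the 5 SKmel147 lines. The genes with the most similar pattern to APOBEC3B were CHST2, a sulfotransferase gene, and KCNG1, a potassium channel gene, both at r = 0.991, followed by NLRP1 at 0.987. NLRP1 had r = -0.137 within SKmel147, so its likeness came from 501mel. APOBEC3A was most like CHST2 at 0.990, DLX6 at 0.989 and APOBEC3B. APOBEC3D was most like KIAA0753 at 0.989 and APOBEC3F most like SUPT6H at 0.966. These values describe 9 lines that share libraries with the comparisons above, with no test, and the spread of the 4 lines of 501mel dominates them.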

How the data were processed

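Polyadenylated RNA of 18 libraries was sequenced after a directional library kit, per the labels' protocols. The authors deposited unnormalized counts of reads for each gene symbol, made with STAR 2.6.0 and featureCounts on GRCh37 or hg19, per the submitters' processing notes. The annotation release, the strand setting and multi-mapped reads are not described in the sources used here. No column was left unused. Counts were tested with edgeR 4.0.16 in R 4.3.3, by the quasi-likelihood test, with TMM scaling, filterByExpr and 1 coefficient per line. Each cell line was fitted on its own (18361 genes tested in SKmel147, 16230 in 501mel), and all 18 libraries jointly for contrasts across cell lines (19518 genes). P-values were adjusted by the BH method over all genes tested, with 0.05 as the threshold for a call. In KO minus controls every KO line has the same weight, as have both control lines. The scripts were tested on simulated data. Sequences, gene order and exon lengths come from GENCODE 29, whose build differs from the authors', so no coordinates are given; 34024 of 56629 symbols matched. Alternatives used limma 3.58.1 and DESeq2 1.42.0. The members and gene lists were chosen with earlier results of these data known. All members are named, and from each list up to 3 genes per cell line with the smallest p in KO minus controls, plus genes needed for small counts; some listed genes are not reported here. The neighbours are the 8 nearest tested protein-coding genes per side, and likeness was taken among genes tested in both cell lines whose mean log2 CPM reached 1 in each.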

Additional observations from a re-analysis of the deposited data

Results flagged for a closer look

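The difference between the transduced control and Par differed between the 2 cell lines for 3 members, by a test of the difference itself in the joint edgeR fit. For APOBEC3A the log2 difference of SKmel147 minus 501mel was -1.65 ± 0.24 (BH-adjusted p = 0.000366), from -0.78 in SKmel147 and 0.88 in 501mel. For APOBEC3B it was -1.01 ± 0.13 (BH-adjusted p = 0.000131), from -0.11 and 0.89. For APOBEC3F it was -1.84 ± 0.39 (BH-adjusted p = 0.00626), from -1.0 and 0.83. Of these values, that of APOBEC3B in SKmel147 and that of APOBEC3F in 501mel were not called on their own (edgeR, BH-adjusted p = 0.576 and 0.0686). The 501mel control libraries also enter the comparison on which the members were chosen. The transduced controls carried different vectors in the 2 cell lines, and vector, cell line and the single line each stands for cannot be told apart.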

How the results depend on the processing

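Counts of called members in SKmel147 depended on the processing. For KO minus controls, with 3 called, the count was 1 with NT alone as the control or without the line KO3.20, and 0 without the line KO1.5, with the line as the replicate or in limma's voom with a block per line, and it ran from 0 to 3 when 1 library was left out. For KO1.4, with 0 called, it was 1 after a correction for GC content and length or with Par alone. For KO1.5, with 2 called, it was 1 without the low-count filter or with NT alone, 3 with Par alone (all lower, in place of 1 higher and 1 lower), and 0 to 3 with 1 library left out. For KO3.20, with 0 called, it was 2 after the GC and length correction and 1 without the filter, by the DESeq2 Wald test, with APOBEC3A and APOBEC3B summed or with Par alone, and 0 to 1 with 1 library left out. For NT minus Par, with 3 called, it was 0 to 2 with 1 library left out. Among the KO lines, with 0 called, it was 1 after the GC and length correction and 0 to 1 with 1 library left out. In 501mel, KO minus controls kept 4 called members except for 0 with the line as the replicate, 3 of 3 with APOBEC3A and APOBEC3B summed and 5 of 7 without the filter, and NTC minus Par had 1 in place of 2 when that pair was summed into 1 row. KO5.2 minus KO1.8 gave 2 of 3 with the pair summed and 3 called in every other fit run. Directions turned for uncalled members of SKmel147 KO minus controls: APOBEC3D at 0.02 after the GC and length correction, 0.28 with Par alone and -0.05 to 0.04 with 1 library left out; APOBEC3F at -0.47 with Par alone, -0.13 without the line KO1.4, -0.01 without KO3.20, -0.01 with the line as the replicate and -0.10 to 0.19 with 1 library left out; APOBEC3G at 0.83 with NT alone, 0.11 without KO3.20 and -0.22 to 0.07 with 1 library left out. The cause was not tested. Deviations of same-numbered libraries had r of -0.261 to 0.329 over 10 pairs of lines in SKmel147, 3 of them above 0.1. In 501mel the r was -0.0221 to 0.137 over 6 pairs of lines, 2 of them above 0.1. Whether the numbers pair the libraries is thus not settled. A replicate block left 3 called members in SKmel147, with 3083 of all genes called in place of 3245. It left 4 called members in 501mel, with 9045 of all genes called in place of 8325. Of the called list genes, 24 in SKmel147 and 65 in 501mel, none reversed under DESeq2 size factors, the GC and length correction, either control alone or the line as the replicate, but 48 were called in SKmel147 after the GC and length correction and 0 in either cell line with the line as the replicate. With Par alone 5 of the 24 and 15 of the 65 lost their call, and with the transduced control alone 10 and 8 did. Of the SKmel147 list genes named above, BIRC3, RBBP4, MDM2, IFIT1, REV3L and UNG were not called with NT alone. PRKCH, LIN9, MYBL2 and IFITM3 were not called with Par alone. Counts of 7 or fewer limit APOBEC3C, APOBEC3G and APOBEC3H in 501mel.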

Other observations

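Genes of antiviral defence were also compared between the 501mel KO lines, where 41.3% of all genes tested were called and 20.7% were lower in KO5.2. Of 25 interferon genes tested, 2 were higher, 11 lower and 12 not called in KO5.2 relative to KO1.8, with a median log2 value of -0.21 against -0.00 over all genes, and of 11 other antiviral restriction factors 2 were higher, 6 lower and 3 not called, with a median of -0.32. No test of either list was run. Of the TEAD and p53 regulators, 4 of 7 were higher in KO5.2 and none lower (median 0.22), and 4 of 7 were higher and none lower in NTC relative to Par (median 0.31), where 15.7% of all genes were called and 6.77% were higher.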
